A study of Mus musculus with 18 samples.

Results

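The genes described here handle haem and the iron that haem holds. They were chosen by symbol from the deposited kidney table, as the haem oxygenase Hmox1 with the enzymes that follow it, the ferritin chains, the iron exporter and receptor, the mitochondrial iron carrier and enzymes of haem synthesis. All 10 members (Hmox1, Blvra, Blvrb, Ftl1, Fth1, Slc40a1, Tfrc, Slc25a37, Alas1 and Fech) were among the 19518 genes of the table, and all 10 passed the filter on low values, which 12030 genes passed. The choice rested on an earlier comparison of high fat diet kidneys with and without one of the transplants, in which Hmox1 and Slc25a37 differed. That comparison is therefore described below without tests of single members, and nothing is read from its counts of members past the threshold. Messenger RNA was measured in 18 kidney libraries of ICR mice, an outbred stock, aged 10 weeks, in 6 groups of 3. The groups were mice on a high fat diet that received a faecal microbiota transplant labelled AOS 10 mg/kg (HFD+AOS-FMT), mice on the same diet that received a control transplant (HFD+control-FMT), mice on the diet given AOS at 10 mg/kg (HFD+AOS), mice on the diet alone (HFD), mice given AOS at 10 mg/kg without the diet (AOS) and untreated controls. A faecal transplant transfers gut microbes from a donor. The labels do not spell out AOS, and they give no genotype, sex, transplant donor, length of the diet or time of collection.

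Haem oxygenases open the haem ring and release iron, carbon monoxide and biliverdin, which biliverdin reductases turn into bilirubin. Freed iron is stored in ferritin, a shell of light and heavy chains, leaves the cell through ferroportin, or enters mitochondria, where it is put into new haem and into iron-sulphur clusters. In the kidney, the proximal tubule takes up filtered haem proteins and iron, and HMOX1 is known there as an enzyme induced by haem and by oxidative stress.

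The values are normalized signals per gene, treated as scaled for transcript length and library depth, and the number of reads is unknown. Differences are in log2(value + 1), which understates changes of low values. Whether the 3 libraries of a group are 3 animals is not stated, and p-values therefore cover the spread among libraries. How much of that spread is technical is unknown. Libraries of the same group could differ widely in haemoglobin beta transcripts, whose values are given under other observations. One library stood apart. In control replicate 3, Kap, an abundant proximal tubule transcript, took 2.48% of the summed values, against 17.2% to 22.9% in the other 17 libraries, and the 8 adrenal cortex markers summed to 922, against at most 2.31 elsewhere. Testis germ cell markers without Smcp summed to 29.6 to 45.7 in the 3 control libraries and in HFD replicates 1 and 2, against at most 1.24 in the other 13 libraries. The proximal tubule was present in every library by its markers, with Kap at 15798 in control replicate 3 and at 113327 or more in the others. These are whole kidney samples, in which fewer cells of a type and less RNA per cell cannot be told apart.

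Hmox1 and Ftl1, the light chain of ferritin, were lower in kidneys of mice given AOS on the high fat diet than in kidneys of mice on the diet alone. Hmox1 fell by 59.6% and Ftl1 by 33.2% in mean signal, and the libraries of the groups did not overlap for either gene. These were the 2 members of 10 that passed the threshold in HFD+AOS against HFD, where 99 of all genes tested did (56 higher and 43 lower, 0.823%). With 1 library left out, 10 to 40 genes passed, and 819 did without control replicate 3 in the fit. Hmox1 passed in all 6 of the fits with 1 library of these groups left out, and Ftl1 in 0 of 6. The 3 HFD libraries held the 3 highest values of both genes among all 18 libraries. In HFD against control no member passed in limma, and 2 of 10, Hmox1 and Ftl1, had an unadjusted p under 0.05, a share close to the 17.4% of all genes. The HFD libraries also entered the choice of genes, so neither comparison is fully independent of it.

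**Figure D1:**
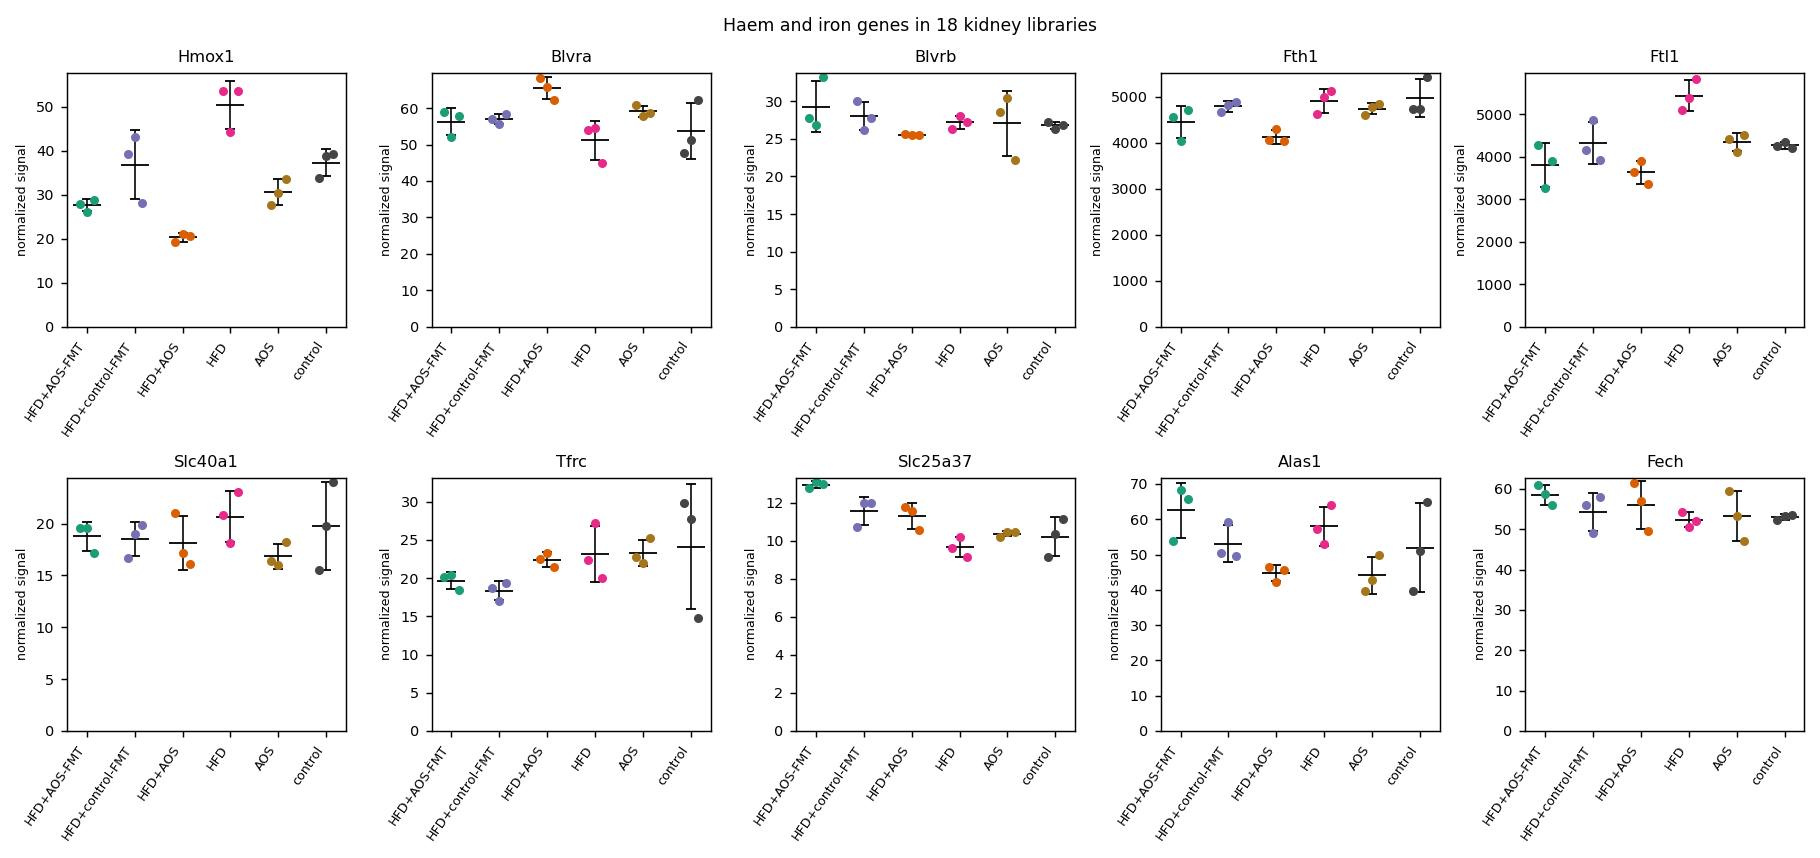
Normalized signal of the 10 genes (vertical axes, from 0) in the 6 groups (horizontal axes). Points are libraries, black bars the group mean and SD (n = 3). For Hmox1 the HFD points lie at 44.1 to 53.5 and the HFD+AOS points at 19.2 to 21.1, and for Ftl1 the HFD points are the highest 3 of 18.

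Hmox1 (GRCm38 chromosome 8, 75093621 to 75100589, plus strand), the inducible haem oxygenase, carries out the step that commits haem to breakdown. Its signal was 19.2, 21.1 and 20.7 in HFD+AOS libraries, against 53.5, 44.1 and 53.5 in HFD libraries. All 3 HFD+AOS values were the lowest of the 18 libraries. The difference was -1.26 on the log2 scale (SE 0.13, 95% interval -1.54 to -0.99, limma adjusted p = 0.000694). It kept its sign and passed when any 1 of the 6 libraries was left out, with limma adjusted p between 0.00145 and 0.0101. The HFD libraries in this comparison are those that also entered the choice of the genes, so it is not fully independent of that choice. For every member the same holds for HFD+control-FMT against HFD, HFD against control and the difference between the AOS effects. HFD+AOS-FMT against HFD+control-FMT likewise shares the HFD+AOS-FMT libraries with that choice.

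In the transplant groups Hmox1 stood at 27.9, 26.1 and 28.8 in HFD+AOS-FMT libraries and at 39.3, 43.2 and 28.0 in HFD+control-FMT libraries. The HFD+AOS-FMT group averaged 27.6 ± 1.38, the HFD+control-FMT group 36.8 ± 7.87 and the HFD group 50.4 ± 5.40 (SD, n = 3 each). Every transplant library was below every HFD library, although HFD+control-FMT replicate 2, at 43.2, was close to HFD replicate 2, at 44.1. As a description, the log2 differences from HFD were -0.84 for HFD+AOS-FMT and -0.46 for HFD+control-FMT. The second did not pass (limma adjusted p = 0.961). Between the transplants, HFD+AOS-FMT and HFD+control-FMT overlapped, through HFD+control-FMT replicate 3, which lay among the HFD+AOS-FMT values.

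Without the diet, Hmox1 was 27.6, 30.5 and 33.6 in AOS libraries, against 33.7, 38.7 and 39.3 in control libraries. These groups were adjacent without overlapping, 33.6 against 33.7, and the log2 difference of -0.28 did not pass (SE 0.13, 95% interval -0.55 to -0.01, limma adjusted p = 0.388). HFD libraries lay above control libraries by 0.42 on the same scale (SE 0.13, 95% interval 0.15 to 0.70), which did not pass either (limma adjusted p = 0.234). HFD+AOS against AOS, a comparison added after values had been seen, sets the diet against no diet under AOS. Its groups hold none of the libraries that entered the choice of genes, although the shared spread of the fit includes those libraries. There the log2 difference of Hmox1 was -0.56 (SE 0.13, 95% interval -0.84 to -0.29), without overlap and without passing (limma adjusted p = 0.130). With control replicate 3 left out of the shared spread the same difference had a limma adjusted p = 0.0452. Many other genes also passed in that setting, as given under the processing below. Red cell and clock transcripts differed in the same comparison, where 11.1% of all genes had an unadjusted p under 0.05. Of 7 tested erythroid markers, 7 had such a p, 5 with lower and 2 with higher values in HFD+AOS (median log2 difference -1.18), as did 6 of 13 clock genes, and none of either list passed in limma. The 2 higher were the haemoglobin beta genes Hbb-bs and Hbb-bt. In AOS replicates 1 and 2 Hbb-bs was at 1.04 and 2.93 and Hbb-bt at 0.27 and 0.24, against 213 and 23.5 in replicate 3. The part of red cell and clock transcripts in the Hmox1 difference was not tested.

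The mean of Hmox1 was thus higher with the diet than without it where AOS was absent, and lower with the diet where AOS was given, with neither difference past the threshold. The test of this crossing, the AOS effect on the diet minus the AOS effect without it, gave -0.99 on the log2 scale for Hmox1 (SE 0.18, 95% interval -1.37 to -0.60). Its unadjusted limma p was 6.731e-05, and it did not pass over all genes (limma adjusted p = 0.265). The HFD libraries that entered the choice of genes are part of this test, so its p-values are not independent of that choice. No gene passed this test (0% of 12030), while 1490 had an unadjusted p under 0.05. From low to high, mean Hmox1 ran HFD+AOS, HFD+AOS-FMT, AOS, HFD+control-FMT, control and HFD. HFD+AOS was separate from its neighbour HFD+AOS-FMT, and HFD from its neighbour control, while neighbours among the 4 groups in between overlapped.

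Hmox2, the constitutive haem oxygenase, served as a neighbour in function with little movement, at 76.7 to 93.4 in all 18 libraries. The ratio of Hmox1 to Hmox2 was 0.233, 0.239 and 0.255 in HFD+AOS libraries, against 0.608, 0.501 and 0.661 in HFD libraries. The ratio was 0.337 to 0.357 in HFD+AOS-FMT libraries, 0.341 to 0.515 in HFD+control-FMT libraries, 0.313 to 0.372 in AOS libraries and 0.381 to 0.428 in control libraries. Hmox1 was therefore the less abundant of the oxygenases on this length-scaled signal in every library, and the ratio varied with Hmox1 rather than with Hmox2.

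Blvra (chromosome 2, 127070665 to 127097084, plus strand), the reductase that makes bilirubin from biliverdin alpha, lay the other way from Hmox1. It was 68.2, 65.9 and 62.4 in HFD+AOS libraries, against 53.9, 54.5 and 45.0 in HFD libraries. The groups did not overlap, and HFD+AOS held the highest 3 of the 18 values. The log2 difference of 0.35 did not pass (SE 0.09, 95% interval 0.16 to 0.55, limma adjusted p = 0.0834). It passed after quantile normalization (limma adjusted p = 0.0322) and with control replicate 3 left out of the shared spread (0.00962). Blvra was also above HFD without overlap in HFD+control-FMT (57.1, 55.7 and 58.3, log2 difference 0.16, limma adjusted p = 0.9996), and overlapped with HFD in HFD+AOS-FMT (59.0, 52.2 and 57.7).

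AOS libraries had Blvra at 60.8, 57.8 and 58.6, and control libraries at 47.6, 51.2 and 62.2. The groups overlapped because of control replicate 3, the library that stood apart. HFD+AOS lay above AOS without overlap, by a log2 difference of 0.15 (limma adjusted p = 0.609). Mean Blvra ran, from low to high, HFD, control, HFD+AOS-FMT, HFD+control-FMT, AOS and HFD+AOS, and of these neighbours only HFD+AOS and AOS were separate.

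Blvrb (chromosome 7, 27447978 to 27466144, plus strand), a reductase of flavins and of other biliverdin isomers, had a highest library 1.49 times its lowest. It was 25.6, 25.5 and 25.5 in HFD+AOS libraries, against 26.3, 28.1 and 27.3 in HFD libraries. The HFD+AOS values were unusually close together and just below the HFD values, with a log2 difference of -0.09 that did not pass (SE 0.10, 95% interval -0.29 to 0.12, limma adjusted p = 0.742). The other groups spanned 26.9 to 33.2 (HFD+AOS-FMT), 26.2 to 30.0 (HFD+control-FMT), 22.2 to 30.5 (AOS) and 26.3 to 27.2 (control). Of the neighbouring groups in mean Blvrb, only HFD+AOS and control did not overlap.

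Ferritin, ferroportin and the transferrin receptor are known to be controlled after transcription, through a hairpin in their messenger RNA called an iron-responsive element, which iron regulatory proteins bind when iron is scarce. In the untranslated region before the coding sequence, binding blocks translation. In the region after it, binding protects the RNA from decay, so the RNA level of Tfrc can follow iron while the RNA levels of Ftl1, Fth1 and Slc40a1 need not follow their protein. The hairpins of these 4 members are shown because they set apart what a messenger RNA measurement can show of each. Each site has 29 bases, read 5′ to 3′ on the sense strand from GENCODE M21 transcripts (GRCm38), and capitals mark the loop CAGTGN.
Ftl1, before the coding sequence, chr7:45459779-45459807, minus strand: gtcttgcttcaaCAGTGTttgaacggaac
Fth1, before the coding sequence, chr19:9982732-9982760, plus strand: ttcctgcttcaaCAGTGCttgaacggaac
Slc40a1, before the coding sequence, chr1:45925465-45925493, minus strand: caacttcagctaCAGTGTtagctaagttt
Tfrc, after the coding sequence, chr16:32631219-32631247, plus strand: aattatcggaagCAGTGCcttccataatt
Tfrc, after the coding sequence, chr16:32631598-32631626, plus strand: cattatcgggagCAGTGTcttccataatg
Tfrc, after the coding sequence, chr16:32631663-32631691, plus strand: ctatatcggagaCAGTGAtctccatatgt
Tfrc, after the coding sequence, chr16:32631710-32631738, plus strand: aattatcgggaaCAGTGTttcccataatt

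The search, on the strand of the RNA only, asked for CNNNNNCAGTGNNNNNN in which the 5 bases before the loop pair with the 5 after it, and added 6 bases at each end. The Ftl1 and Fth1 sites shared 26 of 29 bases, and each shared 13 of 29 with the Slc40a1 site. The 4 Tfrc sites shared 18 to 25 bases among themselves. Such a match was found before the coding sequence in 30 of 20088 genes with that region (0.149%) and after it in 127 of 20841 genes (0.609%). The other 6 members had no match, which says only that no site meeting all these conditions is in their untranslated regions in this annotation.

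Ftl1 (chromosome 7, 45457944 to 45459884, minus strand) encodes the ferritin light chain, which helps iron to mineralize inside the shell. It was 3638, 3906 and 3356 in HFD+AOS libraries, against 5096, 5390 and 5837 in HFD libraries. All 3 HFD values were higher than all 3 HFD+AOS values, and HFD+AOS replicate 2 was the highest of its group. The log2 difference was -0.58 (SE 0.10, 95% interval -0.81 to -0.36, limma adjusted p = 0.0225). The direction did not change in any alternative, but the call did. Without HFD+AOS replicate 1, 2 or 3, or HFD replicate 1, 2 or 3, each left out in turn, Ftl1 did not pass (limma adjusted p = 0.0531 to 0.0971), and with a term for the germ cell transcripts it had an adjusted p = 0.133.

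Ftl1 was 4269, 3259 and 3905 in HFD+AOS-FMT libraries and 4157, 4867 and 3927 in HFD+control-FMT libraries, all below the HFD values. The log2 differences from HFD were -0.52 for HFD+AOS-FMT, as a description, and -0.34 for HFD+control-FMT (limma adjusted p = 0.9996). AOS libraries had 4414, 4116 and 4521, and control libraries 4264, 4355 and 4198, so these groups overlapped. HFD lay above control without overlap by 0.35 on the log2 scale (SE 0.10, 95% interval 0.12 to 0.57), which did not pass (limma adjusted p = 0.234). HFD+AOS lay below AOS without overlap by -0.26 (SE 0.10, 95% interval -0.48 to -0.04, limma adjusted p = 0.363). The difference between the AOS effects with and without the diet was -0.61 for Ftl1 (SE 0.15, 95% interval -0.92 to -0.29, limma adjusted p = 0.280). This value and the difference of HFD from control also rest on the HFD libraries that entered the choice of genes. From low to high the means ran HFD+AOS, HFD+AOS-FMT, control, HFD+control-FMT, AOS and HFD, and only HFD was separate from its neighbour.

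Fth1 (chromosome 19, 9980598 to 9985098, plus strand) encodes the ferritin heavy chain, whose ferroxidase activity takes iron into the shell. It was 4047, 4304 and 4039 in HFD+AOS libraries, against 4620.5, 4991 and 5125 in HFD libraries. The groups did not overlap, the log2 difference was -0.25 and did not pass (SE 0.08, 95% interval -0.42 to -0.08, limma adjusted p = 0.144), and the sign turned to 0.04 after quantile normalization. HFD+AOS was also below AOS (4601, 4764 and 4834) without overlap, by -0.20 (limma adjusted p = 0.359). That difference ranged from -0.23 to 0 over the alternatives. In the remaining groups Fth1 was 4558, 4043 and 4706 (HFD+AOS-FMT), 4655, 4824 and 4878 (HFD+control-FMT) and 4730.5, 4735 and 5433 (control). All neighbouring groups in mean Fth1 overlapped. Ferritin genes have many near-identical processed copies in the mouse genome, and Ftl1 overlaps annotated Gm10252 on the opposite strand and Gm22133 on the same one, so the assignment of ferritin reads is uncertain.

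The ratio of light to heavy chain RNA separated the HFD libraries from all others. It was 0.899, 0.908 and 0.831 in HFD+AOS libraries, against 1.10, 1.08 and 1.14 in HFD libraries, the only group in which every library had more light than heavy chain signal. The next highest value after the HFD libraries was 1.01 in HFD+control-FMT replicate 2, and the remaining 14 libraries lay between 0.773 and 0.959. This ratio was looked at after the values had been seen and is given without a test.

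**Figure D2:**
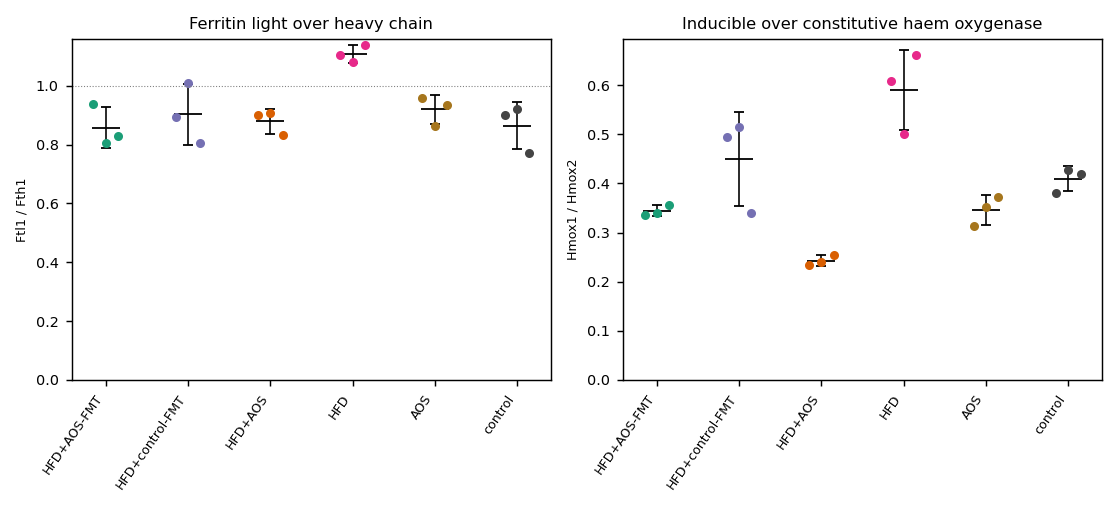
Ratio of the signals of Ftl1 and Fth1 (left, with a dotted line at 1) and of Hmox1 and Hmox2 (right) in the 6 groups. Points are libraries, bars the group mean and SD (n = 3). HFD libraries lie at 1.08 to 1.14 on the left, above every other library, and HFD+AOS libraries lie at 0.233 to 0.255 on the right, below every other library.

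Slc40a1 and Tfrc, the routes of iron out of and into the cell, showed smaller differences than the spread within groups in most comparisons. Slc40a1 (chromosome 1, 45908068 to 45926523, minus strand), ferroportin, the known exporter of iron, was 21.0, 17.2 and 16.1 in HFD+AOS libraries, against 20.8, 18.1 and 23.0 in HFD libraries. It was 19.5, 19.6 and 17.2 in HFD+AOS-FMT libraries, 16.7, 19.0 and 19.8 in HFD+control-FMT libraries, 16.4, 16.0 and 18.2 in AOS libraries and 15.6, 19.8 and 24.0 in control libraries. No pair of groups compared was free of overlap for Slc40a1, and all neighbours in mean level overlapped. For HFD+AOS against HFD the 95% interval of its log2 difference was -0.47 to 0.10.

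Tfrc (chromosome 16, 32608920 to 32632794, plus strand), the receptor that takes up transferrin-bound iron, was 18.7, 17.0 and 19.4 in HFD+control-FMT libraries, against 22.3, 27.2 and 19.9 in HFD libraries. This was the only compared pair without overlap, with 19.4 next to 19.9, and its log2 difference of -0.31 did not pass (SE 0.18, 95% interval -0.71 to 0.08, limma adjusted p = 0.9996). HFD+AOS-FMT libraries had 20.2, 20.4 and 18.4, HFD+AOS libraries 22.5, 23.3 and 21.4, and AOS libraries 22.8, 21.9 and 25.2. Control libraries ranged most, at 29.8, 27.7 and 14.7, and the low value belonged to control replicate 3. In mean level only HFD+AOS and HFD+AOS-FMT were separate among neighbours.

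Slc25a37 (chromosome 14, 69241848 to 69285112, minus strand), mitoferrin, carries iron into mitochondria and is best known from red cell precursors. It was 12.8, 13.1 and 13.0 in HFD+AOS-FMT libraries, 10.7, 12.0 and 12.0 in HFD+control-FMT libraries and 11.8, 11.6 and 10.6 in HFD+AOS libraries, against 9.65, 10.2 and 9.15 in HFD libraries. All 9 libraries of the 3 treated groups lay above all 3 HFD libraries. The log2 differences from HFD were 0.39 for HFD+AOS-FMT, as a description, 0.24 for HFD+control-FMT (SE 0.07, 95% interval 0.08 to 0.39, limma adjusted p = 0.9996) and 0.21 for HFD+AOS (SE 0.07, 95% interval 0.05 to 0.36, limma adjusted p = 0.184). These comparisons share the HFD libraries, so their directions are not independent of each other.

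HFD+AOS-FMT lay above HFD+control-FMT for Slc25a37 without overlap. Its log2 difference of 0.15 did not pass (SE 0.07, 95% interval -0.0012 to 0.31, limma adjusted p = 0.709). AOS libraries had 10.2, 10.5 and 10.5, and control libraries 9.14, 10.4 and 11.2. HFD+AOS was above AOS without overlap, by 0.11 (limma adjusted p = 0.626). From low to high the means ran HFD, control, AOS, HFD+AOS, HFD+control-FMT and HFD+AOS-FMT, with HFD+AOS-FMT separate from HFD+control-FMT and HFD+AOS separate from AOS. Its paralogue Slc25a28, mitoferrin 2, was at 20.3 to 37.5, and 37.5 was control replicate 3. Slc25a37 overlaps 4 annotated genes, 1 on the same strand and 3 on the opposite strand, and without a stated strand setting their reads cannot be told apart.

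Alas1 (chromosome 9, 106233455 to 106248654, minus strand) encodes the enzyme of the rate-limiting step of haem synthesis outside red cell precursors, and haem is known to lower its expression. It was 46.5, 42.3 and 45.7 in HFD+AOS libraries, against 57.2, 52.9 and 63.9 in HFD libraries. The groups did not overlap, and the log2 difference of -0.36 did not pass (SE 0.15, 95% interval -0.67 to -0.05, limma adjusted p = 0.247). Alas1 and Hmox1, enzymes at either end of the life of haem, both had lower values in HFD+AOS than in HFD libraries, and only Hmox1 passed.

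Alas1 was 53.7, 68.2 and 65.7 in HFD+AOS-FMT libraries and 50.5, 59.1 and 49.6 in HFD+control-FMT libraries, which overlapped with HFD and with each other. AOS libraries had 39.6, 42.9 and 49.8, and control libraries 39.8, 51.1 and 64.9. HFD+AOS and AOS overlapped, with a 95% interval of -0.28 to 0.34 for the log2 difference, so Alas1 did not separate these groups as Hmox1 did. All neighbouring groups in mean Alas1 overlapped. An annotated antisense gene, 4930500F10Rik, overlaps Alas1.

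Fech (chromosome 18, 64452914 to 64490251, minus strand), ferrochelatase, inserts iron into the porphyrin ring as the last step of haem synthesis. It was 60.9, 58.7 and 56.0 in HFD+AOS-FMT libraries, against 54.3, 50.6 and 52.1 in HFD libraries, with a log2 difference of 0.16 given as a description. Fech was 55.9, 48.9 and 58.0 in HFD+control-FMT libraries, 61.5, 57.1 and 49.7 in HFD+AOS libraries, 59.4, 53.2 and 46.9 in AOS libraries and 52.2, 53.3 and 53.4 in control libraries. No other compared pair was free of overlap for Fech, and all neighbours in mean level overlapped. It varied least among the members, the highest library being 1.31 times the lowest, against 2.79 times for Hmox1 and 2.03 times for Tfrc.

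Counted by comparison, HFD+AOS against HFD had 5 of 10 members lower without overlap (Hmox1, Blvrb, Ftl1, Alas1 and Fth1, the last with a sign that turns after quantile normalization), where 12.0% of all genes were, and 2 of 10 higher (Blvra and Slc25a37), where 16.2% were. The median log2 difference of the 10 members was -0.13, beside 0.01 over all genes tested. Counts of members in any comparison that holds the HFD libraries are not independent of the choice of genes, and no excess is read from them. HFD+control-FMT against HFD had 3 of 10 lower without overlap (Hmox1, Ftl1 and Tfrc), where 6.38% of all genes were, and 2 of 10 higher (Blvra and Slc25a37), where 9.07% were. No member and no other gene passed in it (0%), while 541 genes had an unadjusted p under 0.05, and the medians were -0.08 over the members and 0.01 over all genes. HFD+AOS-FMT against HFD+control-FMT had 1 of 10 higher (Slc25a37), near the 12.4% of all genes, and 0 of 10 lower, against 5.67%. It gave 0 genes past the threshold (0%) and 845 with an unadjusted p under 0.05.

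HFD against control had 2 of 10 members higher without overlap (Hmox1 and Ftl1), where 3.03% of all genes were, and 0 of 10 lower, where 12.6% were. The median of all genes was -0.10 there and that of the members 0.01, and limma gave 0 genes past the threshold (0%), while 2091 genes had an unadjusted p under 0.05. These counts of members also rest on the HFD libraries that entered the choice, and no excess is read from them. AOS against control had 0 of 10 higher, where 3.07% of all genes were, and 1 of 10 lower (Hmox1), near the 10.1% of all genes. No member was among the 4 genes that passed (0.0333%). HFD+AOS against AOS had 3 of 10 lower (Hmox1, Fth1 and Ftl1), where 11.7% were, and 2 of 10 higher (Blvra and Slc25a37), where 12.5% were, with 0 genes past the threshold (0%) and 1333 with an unadjusted p under 0.05. In HFD+AOS-FMT against HFD, the comparison behind the choice of genes, 2 of 10 were lower (Hmox1 and Ftl1) and 2 higher (Slc25a37 and Fech), where 7.86% and 17.3% of all genes were, and 2 members, Hmox1 and Slc25a37, were among the 21 genes past the threshold (0.175%), counts from which nothing is read.

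**Figure D3:**
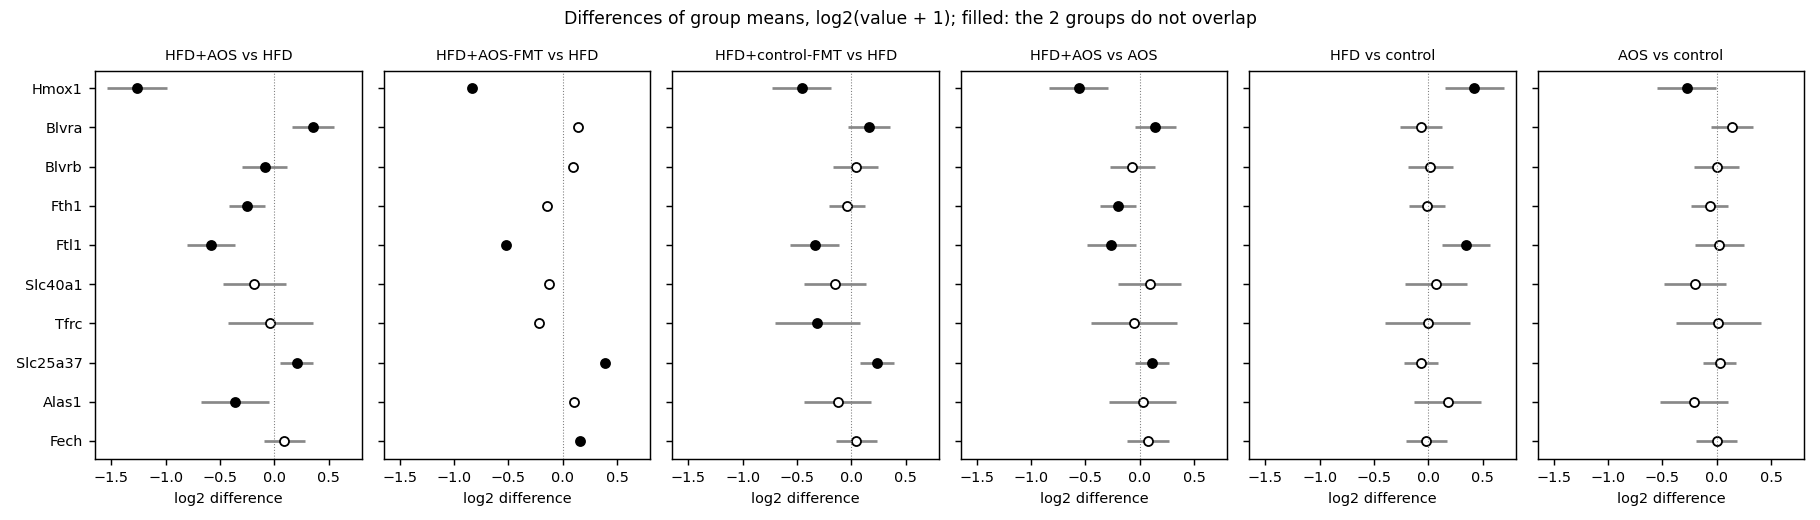
Log2 difference of group means (horizontal axes, log2(value + 1)) of the 10 genes in 6 comparisons, each titled with the groups compared. Filled points mark groups that do not overlap, lines are 95% intervals from limma, and the HFD+AOS-FMT panel has none because that comparison entered the choice of genes. Hmox1 lies at -1.26 in the HFD+AOS against HFD panel and at 0.42 in the HFD against control panel.

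The other genes of these pathways gave no call. None of 7 other enzymes of haem synthesis passed in any comparison, nor did any of 13 genes of haem transport and sensing, 10 of iron uptake and export, 8 of iron sensing and ferritin turnover or 12 of mitochondrial iron and cluster assembly. In HFD+AOS against HFD the medians of these 5 lists lay between -0.03 and 0.07, close to the 0.01 of all genes. An unadjusted limma p under 0.05 was found there for 2 of 7, 0 of 13, 0 of 10, 1 of 8 and 4 of 12 of their genes, in the same order, against 15.1% of all genes, 6 of the 10 members and 11 of 13 clock genes. The count of members is not independent of the choice of genes. Alad, which joins the precursors into the first pyrrole, averaged 137.7 ± 1.04 in HFD+AOS and 131.7 ± 5.22 in HFD libraries (SD, n = 3 each). Pcbp2, an iron chaperone, averaged 167 ± 2.19 against 155 ± 3.94, and Ncoa4, the receptor that delivers ferritin to lysosomes, 52.0 ± 1.73 against 50.0 ± 1.36. Aco1, the iron regulatory protein that doubles as an aconitase, averaged 96.6 ± 4.23 in HFD+AOS and 84.4 ± 2.84 in HFD libraries and did not pass.

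Hmox1 is a known target of the oxidative stress factor NRF2 and of the haem-sensing repressor BACH1. None of 10 other tested NRF2 targets passed in any comparison, and their median log2 difference in HFD+AOS against HFD was -0.13, with 0 of 10 at an unadjusted limma p under 0.05. Lower values in HFD+AOS than in HFD were found for 7 of the 10 and higher values for 3, also after quantile normalization. Gsr, glutathione reductase, averaged 33.3 ± 5.41 in HFD+AOS and 39.7 ± 4.39 in HFD libraries, and Gclc, the catalytic subunit of the first enzyme of glutathione synthesis, 48.4 ± 3.77 against 51.8 ± 6.26. The other way lay Gclm, the other subunit of that enzyme, at 142 ± 6.97 in HFD+AOS and 137 ± 3.54 in HFD libraries, and Txn1, thioredoxin, at 171 ± 17.5 against 165 ± 9.59 (SD, n = 3 each). The remaining 1 of the 3 higher targets was Nqo1, which lay opposite to Hmox1 without overlap. Nqo1 was 20.86, 23.04 and 22.2 in HFD+AOS libraries, against 19.95, 19.42 and 18.39 in HFD libraries. In HFD against control the NRF2 targets had a median of -0.29, beside -0.10 over all genes, and Hmox1 a log2 difference of 0.42. Of the 10 targets, 4 had an unadjusted limma p under 0.05 there, against 17.4% of all genes. Control replicate 3, the library that stood apart, enters this comparison, and its part in the median was not tested. Bach1 was 5.56, 4.37 and 5.24 in HFD+AOS libraries, against 4.83, 4.27 and 3.99 in HFD libraries, with overlap.

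Blood and macrophages also carry these genes, as red cell precursors make haem and macrophages recycle it. The 11 measured erythroid markers summed to 2052 to 4561 in HFD+AOS libraries, against 5791 to 7308 in HFD libraries, without overlap, and 0 of the 7 tested passed in limma, 3 with an unadjusted p under 0.05. Of the 11, haemoglobin transcripts made up nearly all of the sum, and Rhag and Epb42 were under 1 in every library. Alas2, the red cell form of the first enzyme of haem synthesis, was 9.51, 11.1 and 4.36 in HFD+AOS libraries, against 13.7, 12.5 and 16.5 in HFD libraries. In the other groups the erythroid sum was 4856 to 6943 (HFD+AOS-FMT), 7066 to 8809 (HFD+control-FMT), 3817 to 10528 (AOS) and 3259 to 8604 (control).

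Hba-a1, a haemoglobin alpha chain gene, was 2256, 2924 and 1376 in HFD+AOS libraries, against 3906, 4361 and 4683 in HFD libraries, without overlap. HFD+AOS-FMT libraries had 3106, 4468 and 4299, overlapping with HFD. Control replicate 3 had Hba-a1 at 2154 and Hmox1 at 39.3, and AOS replicate 3 had 2461 and 33.6. The part of blood transcripts in the difference of Hmox1 between HFD+AOS and HFD was not tested. The 11 measured macrophage markers summed to 78.9 to 116.8 in HFD+AOS libraries and 95.5 to 121.1 in HFD libraries, with overlap, and 0 of 9 tested passed in any comparison in limma (0 of 9 had an unadjusted p under 0.05 in this one). Cd163, the haemoglobin receptor of macrophages, was at 0.45 or less in all libraries.

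**Figure D4:**
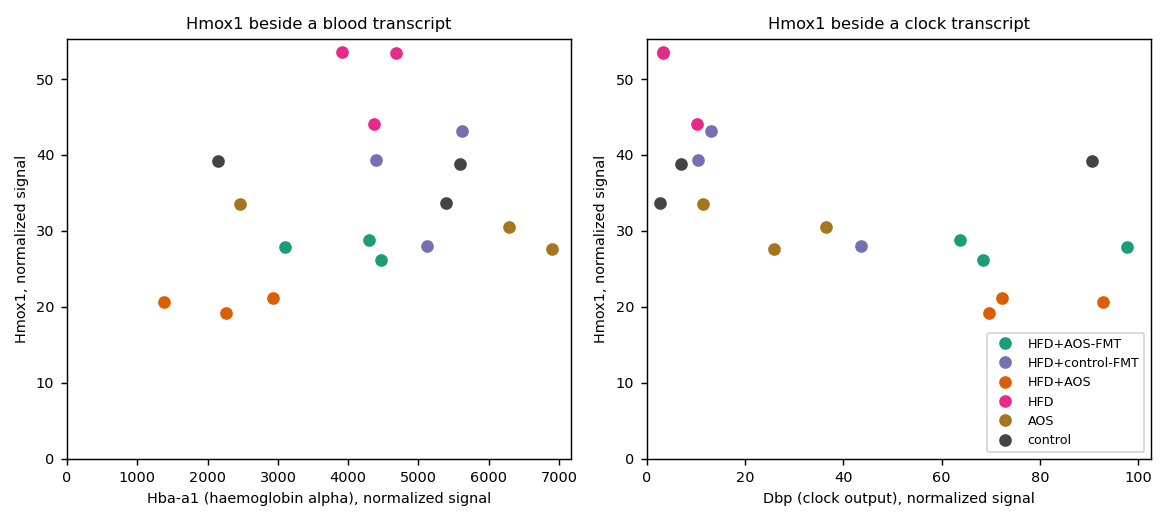
Hmox1 signal (vertical axes) against the signal of Hba-a1 (left) and of Dbp (right) in 18 libraries coloured by group, all axes from 0. HFD+AOS points lie low and to the left on the left panel and low and to the right on the right panel, and control replicate 3 lies at an Hmox1 of 39.3 with Hba-a1 at 2154 and Dbp at 90.6.

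Clock genes also differed in HFD+AOS against HFD. Of 13 clock genes Hlf passed as higher (log2 difference 0.61, limma adjusted p = 0.00233) and Arntl as lower (-1.91, limma adjusted p = 0.0399), and the summed clock list was 295 to 327 in HFD+AOS libraries, against 129 to 159 in HFD libraries. In HFD against control 0 of 13 passed in limma, and 0 of 13 had an unadjusted p under 0.05. Arntl, a core activator of the clock, was 2.41, 1.84 and 1.48 in HFD+AOS libraries, against 10.9, 8.64 and 10.0 in HFD libraries. Dbp, an output factor of the clock, was 69.7, 72.3 and 92.9 in HFD+AOS libraries, against 3.26, 10.2 and 3.36 in HFD libraries. In HFD+AOS-FMT libraries Arntl was 1.30, 1.86 and 1.96 and Dbp 97.8, 68.4 and 63.8, near the HFD+AOS values. The summed clock list was 282 to 331 in HFD+AOS-FMT, 168 to 241 in HFD+control-FMT, 155 to 218 in AOS and 121 to 339 in control libraries. HFD+control-FMT replicate 3 had the highest Dbp of its group, 43.7 against 10.4 and 13.1 in replicates 1 and 2, and the lowest Hmox1, 28.0 against 39.3 and 43.2. Control replicate 3 had Dbp at 90.6, against 2.76 and 6.90 in control replicates 1 and 2, and Hmox1 at 39.3, against 33.7 and 38.7. The time of collection is not given in the labels, and its part in the differences of Hmox1, Ftl1 and Alas1 was not tested.

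The germ cell transcripts split the HFD group. HFD replicate 3, which lacked them, had Hmox1 at 53.5, and HFD replicates 1 and 2, which had them, 53.5 and 44.1. Ftl1 was 5837 in HFD replicate 3, above the 5096 and 5390 of replicates 1 and 2. With a term for these transcripts, Hmox1 had a log2 difference of -1.35 in HFD+AOS against HFD (limma adjusted p = 0.0421) and Ftl1 one of -0.69, which did not pass (limma adjusted p = 0.133). Both values then rest on HFD replicate 3.

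Among all 12029 other genes tested, the pattern closest to that of Hmox1 over the 18 libraries was that of Atp6v0d1, with a root mean square difference of 0.446 between z-scaled log2 values. Then came Atp6v0b (0.474), Tprn (0.537), Ftl1 (0.558) and Npnt (0.567). Atp6v0d1 and Atp6v0b are subunits of the proton pump of lysosomes and other acidic compartments, and Npnt is a basement membrane protein. Ftl1 thus had the 4th closest pattern to Hmox1, and Fth1 the 80th. As the pair was picked as pathway members with some results known, this is a description. Without control replicate 3, Ftl1 was the 15th closest and 1 of the 5 closest genes, Atp6v0d1, was again among the 5.

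**Figure D5:**
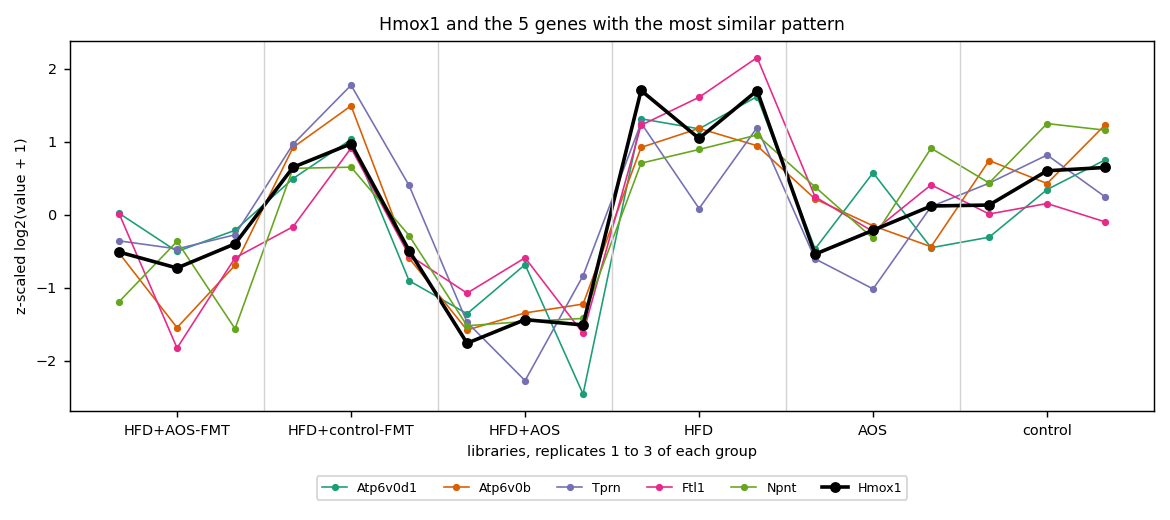
Pattern of Hmox1 (black) and of the 5 genes with the smallest root mean square difference from it, as z-scaled log2(value + 1) (vertical axis), over the 18 libraries by group (horizontal axis), with lines only to guide the eye. Differences from Hmox1 run from 0.446 (Atp6v0d1) to 0.567 (Npnt), and the HFD+AOS libraries are at the low end and the HFD libraries at the high end.

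Atp6v0b was 165, 169 and 171 in HFD+AOS libraries, against 215, 221 and 215 in HFD libraries, and Atp6v0d1 80.6, 84.2 and 75.0 against 96.0, 95.1 and 97.9. The closest to Slc25a37 were the sialidase Neu2 (0.439), the receptor kinase Mertk (0.505), Fam102a (0.519), the mitochondrial RNA-binding protein Grsf1 (0.548) and Cpeb3 (0.553). Closest to Alas1 were the clock-linked deadenylase Noct (0.451), Zbtb18 (0.500), Prmt3 (0.514), the stress gene Ddit4 (0.523) and the kinase Mknk2 (0.574), and among members Slc40a1 was the nearest to Alas1, as the 165th. Closest to Tfrc were Acmsd (0.564), Galnt1 (0.569), Tram1 (0.570), Slc16a14 (0.598) and B4galt5 (0.608). Without control replicate 3, 2 of the 5 named for Slc25a37 (Neu2 and Mertk), 2 of the 5 for Alas1 (Noct and Zbtb18) and 1 of the 5 for Tfrc (Galnt1) were again among the 5 closest. Blvra was among the genes least like Hmox1, as the 11891st of 12029.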

How the data were processed

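RNA for 18 mouse kidney libraries was extracted with Trizol and a column kit, per the labels' protocols, and the alignment used Bowtie 0.12.2 and mm10, per the submitters' processing notes. How reads were counted and normalized, and with which annotation, is not given in the sources used here. A single table of signal per gene and library, normalized by the authors in a unit they do not name, was deposited. Column sums had a coefficient of variation of 3.5%, and of 0.815% after weighting by transcript length (available for 97.3% of genes), so the signal was treated as scaled for length and depth. Of 19545 entries, 26 date-like symbols and 1 repeat were left out. Of the values 17.3% were 0. No counting interval can be given.

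The low-value filter asked for a signal of 1 or above in at least 3 libraries. One limma 3.58.1 model (R 4.3.3, trend and robust spread, two-sided) covered all 6 groups on log2(value + 1), leaving 12 residual degrees of freedom. Adjustment was by Benjamini-Hochberg, separately for 8 contrasts, with a threshold of 0.05. The design had named the signal's test in advance for normalized values. With 3 libraries a group, an exact permutation test of 1 gene cannot go below p = 0.1, so none was run. The fit was tested on simulated data. Same-numbered libraries of different groups did not deviate together (45 pairs, median r -0.02), so numbers were not used as pairs.

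All 10 members are described. Log2 differences are printed mainly for pairs of groups without overlap. From other lists the genes named passed or had high means, and the 5 genes nearest in pattern are named for 4 members. The members and lists were chosen with earlier results of these data known. HFD+AOS against AOS, the ratios, the germ cell term without Smcp and the genes Hmox2, Slc25a28, Bach1, Aco1, Gsr, Gclc, Nqo1, Hba-a1, Cd163, Dbp, Alas2 and the ATPase values were added after values had been seen. Coordinates and transcripts are from GENCODE M21. Settings tried were another pseudocount, no filter, quantile normalization, no trend, a replicate block, a germ cell term, other sets of libraries and each library left out.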

Additional observations from a re-analysis of the deposited data

How the results depend on the processing

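Of 25 member differences, 24 reversed sign in no alternative. The exception was Fth1 in HFD+AOS against HFD, at 0.0372 after quantile normalization (the cause was not tested). Fth1 in HFD+AOS against AOS ranged from -0.2271 to 0 over the alternatives, so it did not keep its sign throughout. Hmox1 in HFD+AOS against HFD passed in all 14 alternatives (-1.35 to -1.22). For Ftl1 7 of 14 passed. In HFD+AOS against HFD, 2 members passed. Leaving out any 1 library gave 1, the germ cell term 1, quantile normalization 3 (Hmox1, Ftl1 and Blvra) and leaving control replicate 3 out of every fit 4 (Hmox1, Ftl1, Fth1 and Blvra). In HFD+AOS-FMT against HFD, 2 members passed, and 1 did with no filter, with quantile normalization, with no trend or robust spread and with the replicate block, 3 did without control replicate 3 in the fit and with only the groups compared, 0 with the germ cell term and 0 to 1 with 1 library left out. That comparison entered the choice of genes, so nothing is read from its counts of members in any setting. In HFD+AOS against AOS 1 member (Hmox1) passed without control replicate 3 in the fit.

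Over all genes, HFD+AOS against HFD gave 99, and 45 with no filter, 45 with the replicate block, 7 with the germ cell term, 819 without control replicate 3 in the fit, 347 with only the groups compared and 10 to 40 with 1 library left out. HFD+AOS-FMT against HFD gave 21, and 9 with quantile normalization, 13 with no trend, 1 with the germ cell term, 585 without control replicate 3, 179 with only the groups compared and 0 to 10 with 1 library left out. HFD against control gave 0, and 25 with no filter, 1 with only the groups compared and 0 to 217 with 1 library left out (217 without control replicate 2). AOS against control gave 4, and 149 with no filter, 1 with quantile normalization, 1 with the replicate block, 0 with the germ cell term, 0 without control replicate 3 and 0 to 30 with 1 library left out (30 without control replicate 2). HFD+AOS against AOS gave 0, and 4 with quantile normalization, 4 with no trend, 158 without control replicate 3, 8 with only the groups compared and 0 to 11 with 1 library left out. HFD+AOS-FMT against HFD+control-FMT gave 0, and 14 without control replicate 3, 1 with only the groups compared and 0 to 2 with 1 library left out. HFD+control-FMT against HFD gave 0, and 0 to 8 with 1 library left out (8 without HFD replicate 3). The difference between AOS effects gave 0, and 4 with no filter and 0 to 1 with 1 library left out.

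The replicate block changed no call of a member outside HFD+AOS-FMT against HFD. Replicate numbers were shared without pairing the libraries, as 5 of 45 same-numbered pairs correlated above 0.1 and 5 of 18 libraries correlated best with their own number. The planned germ cell term could not be run, because all 18 libraries reached its sum through Smcp. With 3 libraries a group, no known read depth and no stated separate animals, small differences of single genes cannot be resolved, and values of ferritin depend on how copies were counted.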

Other observations

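The haemoglobin beta transcripts, given mainly as a sum above, differed between libraries of one group. Hbb-bs, a haemoglobin beta chain gene, was listed at 247, 404 and 254 in HFD+AOS libraries, 791, 879 and 58.3 in HFD libraries, 1.04, 2.93 and 213 in AOS libraries and 0, 579 and 394 in control libraries. Hbb-b1, another haemoglobin beta chain gene, was at 869, 1037 and 345 in HFD+AOS libraries, 870.4, 980 and 2240 in HFD libraries, 3180, 2680 and 980 in AOS libraries and 2476, 2061 and 564 in control libraries. In control replicate 1 Hbb-bs was thus at 0 beside Hbb-b1 at 2476, and in AOS replicate 1 at 1.04 beside 3180. These genes are closely similar, and the part of read assignment in their differences was not tested. The mice are of an outbred stock, and the part of genotype was not tested either.

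Ndrg1, an iron-responsive and stress-responsive gene outside the lists that was chosen after its values were seen, was 1207, 973 and 810.4 in HFD+AOS libraries, against 1787, 1624 and 1795 in HFD libraries, without overlap. Cdkn1a, a cell cycle inhibitor induced by stress, was 82.6 in control replicate 3 and 2.24 to 14.9 in the other 17 libraries.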
